A study of Homo sapiens with 6 samples.

Results

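NOTCH1, NOTCH2, JAG1 and HEY2 are 4 of the 14884 genes with a named probe set on these arrays, and were taken by symbol. They stand for 3 steps of Notch signalling, with NOTCH1 and NOTCH2 as receptors, JAG1 as a ligand and HEY2 as a target gene. They were selected on the difference of these same intensities between ATRA and DMSO, so that difference is described here without a test.

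Gene expression was measured on 6 one-colour arrays of MM.1S, an established human multiple myeloma line, that is, a cancer of plasma cells grown in culture. All cells, controls included, had a 1 h pulse of Cfz, the usual abbreviation of the proteasome inhibitor carfilzomib. They were then kept for 12 h in the solvent DMSO (3 arrays) or in 10 µM ATRA (3 arrays), the vitamin A derivative all-trans retinoic acid, which binds and activates nuclear retinoic acid receptors. Cells without Cfz were not analysed here, the study rests on 1 cell line, and the labels name no separate cultures, so every p-value measures only the spread between these samples, which may be technical.

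Notch receptors are single-pass membrane proteins that bind ligands of the Jagged and Delta families on neighbouring cells. Binding exposes the receptor to ADAM10 and then to the gamma-secretase complex, which frees the intracellular part. This part enters the nucleus and joins the DNA-binding protein RBPJ and a coactivator of the MAML family, and the complex switches on genes of the HES and HEY families, which encode transcriptional repressors. In myeloma, Notch receptors and Jagged ligands have been studied both in the tumour cells and in the bone marrow stroma around them.

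HEY2 is shown first, because RBPJ binds a short motif, the heptamer GTGGGAA, and HEY2 was the only one of the 4 genes with this motif in its promoter window. A window holds 250 bases before and 50 bases after the annotated start site, from RefSeq on GRCh38.p14, and 1 window was matched for each of the 4 genes. Positions count from the start site, with the first transcribed base as 1 and no position 0. Below are the 250 bases before the HEY2 start and the first 10 transcribed bases (chr6:125749382-125749641, plus strand), with the heptamer in capitals, on the opposite strand at -213 to -207 and on the strand of the gene at -4 to 3.
HEY2: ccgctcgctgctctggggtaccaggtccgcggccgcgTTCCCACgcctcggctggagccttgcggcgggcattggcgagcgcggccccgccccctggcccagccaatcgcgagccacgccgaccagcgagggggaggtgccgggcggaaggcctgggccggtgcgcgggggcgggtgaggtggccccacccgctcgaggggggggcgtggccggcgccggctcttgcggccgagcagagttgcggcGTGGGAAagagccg

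Of 35116 windows in the table, 6.25% held the heptamer on either strand, and 32 windows (0.0911%) held it on both, as HEY2 did. Among the other HES and HEY genes with a window, HES5 also had it on both strands, HES1 and HES4 had it once on the strand of the gene, and HEYL had it once on the opposite strand. The windows of HES2, HES6 and HES7 did not hold these letters. The sites are set side by side below, each turned to read GTGGGAA, in capitals, with 10 bases on either side. The surroundings of the HEY2 sites can thus be read next to those of the other targets. How alike they are outside the motif was not measured.
HEY2 distal: cagccgaggcGTGGGAAcgcggccgcg
HEY2 proximal: gagttgcggcGTGGGAAagagccgcta
HES1: gaaagttactGTGGGAAagaaagtttg
HES4: tggggcgagtGTGGGAAagaatgcgga
HES5 distal: tgtccgggctGTGGGAAcgcgctcgcc
HES5 proximal: gccgcggagtGTGGGAAcggccgcggc
HEYL: ccgccgagccGTGGGAAggccctaggc

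**Figure D1:**
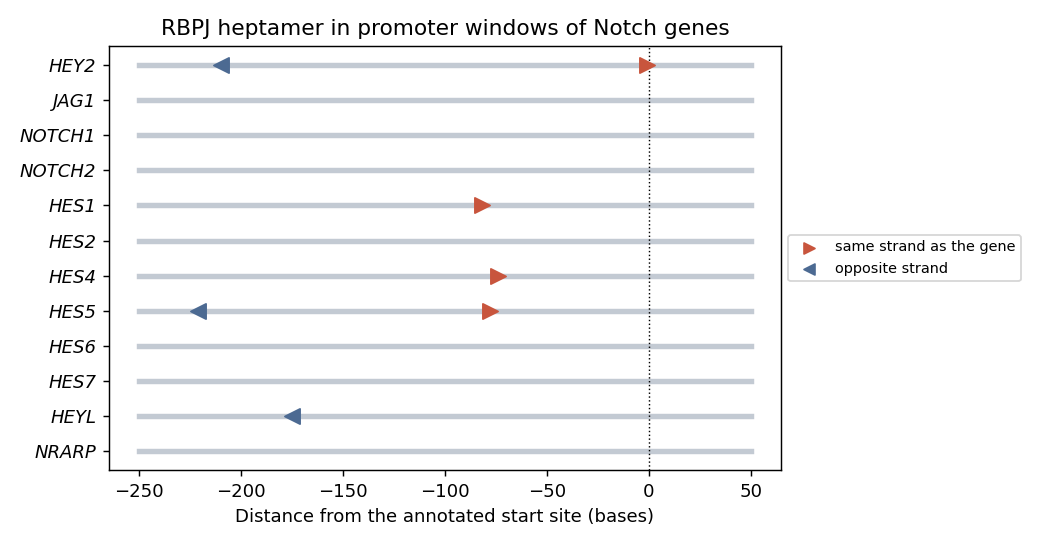
Position of the RBPJ heptamer in the promoter windows of 12 Notch genes, as the distance in bases from the annotated start site (dotted line). Arrowheads mark each match and its strand; HEY2 and HES5 have 2 matches each, and NOTCH1, NOTCH2 and JAG1 have 0.

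The promoter windows of the receptors and of JAG1 are shown for contrast, since their windows do not hold the heptamer. Each is given for the 250 bases before the start, with the GC box GGGCGG, read on both strands, in capitals. NOTCH1 (chr9:136546049-136546298, minus strand) had 4 matches, of which 2 overlap at their ends, NOTCH2 (chr1:120069663-120069912, minus strand) had 1 and JAG1 (chr20:10674000-10674249, minus strand) had 2, 1 on each strand.
NOTCH1: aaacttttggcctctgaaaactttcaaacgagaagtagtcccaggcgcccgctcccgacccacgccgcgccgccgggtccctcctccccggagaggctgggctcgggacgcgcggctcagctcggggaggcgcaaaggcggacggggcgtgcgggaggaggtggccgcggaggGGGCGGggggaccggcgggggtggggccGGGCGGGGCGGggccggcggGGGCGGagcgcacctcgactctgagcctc
NOTCH2: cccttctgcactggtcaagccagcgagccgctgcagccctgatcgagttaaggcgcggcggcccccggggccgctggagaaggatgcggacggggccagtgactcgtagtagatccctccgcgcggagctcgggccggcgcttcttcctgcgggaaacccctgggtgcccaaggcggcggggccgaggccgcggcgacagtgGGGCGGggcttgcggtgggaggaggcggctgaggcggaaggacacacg
JAG1: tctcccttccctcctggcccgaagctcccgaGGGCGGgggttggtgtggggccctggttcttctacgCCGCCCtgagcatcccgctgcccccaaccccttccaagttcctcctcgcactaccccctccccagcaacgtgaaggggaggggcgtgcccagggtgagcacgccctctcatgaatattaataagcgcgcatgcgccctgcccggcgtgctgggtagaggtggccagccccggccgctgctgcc

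The HEY2 window held the GC box too, where it is left in lower case above. It was at -164 to -159 on the opposite strand, and at -109 to -104 and -82 to -77 on the strand of the gene. The GC box is common, with 45.0% of all windows holding it on either strand. Retinoic acid receptors bind pairs of a hexamer, of which only the forms AGGTCA and AGTTCA were searched here. None of the 4 windows held either form, on either strand, while 13.8% and 10.4% of all windows did. A direct repeat of AGGTCA with a spacer of 5 bases was found in 2 of the 35116 windows and in 0 of these 4. The E-box CACGTG, a sequence bound by HES and HEY proteins, was in 7.26% of all windows and in none of the 4. These matches describe letters in a short stretch, and sites farther away were not searched.

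The receptors moved in opposite directions. NOTCH1 had intensities of 164, 144 and 138 with DMSO and of 96.4, 110.5 and 95.7 with ATRA. Every ATRA array was below every DMSO array, and DMSO replicate 1 was the highest of its group. The group means were 149 ± 13.7 with DMSO and 101 ± 8.35 with ATRA (SD, n = 3 each), and NOTCH1 was 1.47-fold lower with ATRA, a log2 difference of -0.56 (SE 0.11). In bulk RNA, fewer cells that carry a transcript and less transcript per cell cannot be told apart.

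NOTCH2, the receptor paralog of NOTCH1, had intensities of 258, 285 and 236 with DMSO and of 459, 422 and 434 with ATRA. The groups did not overlap, and the lowest ATRA value was 1.48 times the highest DMSO value. The means were 259.6 ± 24.5 and 438 ± 18.6 (SD, n = 3 each), so NOTCH2 was 1.69-fold higher with ATRA, by 0.76 on the log2 scale (SE 0.10).

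NOTCH2 has partial copies in the human genome, the NOTCH2NL genes, and 1 of them, NOTCH2NLA, had a named probe set and was singled out after its values were seen. The promoter windows of NOTCH2 and NOTCH2NLA shared an unbroken run of 246 of 300 bases. Windows of the other copies shared runs of 8 to 229 bases with that of NOTCH2. These windows lie mostly before the transcribed part, so they do not tell how alike the probed sequences are. NOTCH2NLA had intensities of 346, 371 and 263 with DMSO and of 557, 516 and 623 with ATRA, again without overlap. It was higher by 0.80 on the log2 scale (SE 0.15, adjusted p = 0.0332, limma with Benjamini-Hochberg adjustment over all 14884 genes). The call was lost in 5 of 6 fits with 1 array left out, all but the one without DMSO replicate 2 (adjusted p 0.0487 to 0.111). How much of either signal comes from the other gene was not tested, so the values of both are uncertain.

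JAG1 encodes Jagged1, a ligand that binds the receptors of neighbouring cells. It had intensities of 357, 361 and 386 with DMSO and of 689, 751 and 689 with ATRA. The groups were far apart relative to their spread, with the lowest ATRA value 1.78 times the highest DMSO value. The means were 368 ± 15.97 and 709.8 ± 36.0 (SD, n = 3 each), a 1.93-fold higher level with ATRA and a log2 difference of 0.95 (SE 0.091), the largest of the 4 genes.

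HEY2, a basic helix-loop-helix repressor and target of Notch signalling, had intensities of 33.8, 33.2 and 35.0 with DMSO and of 64.4, 55.3 and 62.2 with ATRA. The DMSO arrays lay within a narrow band, and the lowest ATRA array, replicate 2, was 1.58 times the highest DMSO array. The means were 34.0 ± 0.917 and 60.6 ± 4.74 (SD, n = 3 each), so HEY2 was 1.78-fold higher with ATRA, by 0.83 on the log2 scale (SE 0.096). HEY2 was the dimmest of the 4 probe sets, and its DMSO values were close to the 34.3 of CD8A, a T cell gene and the highest single value among 17 markers of T, NK, myeloid, endothelial and stromal cells (CD68, at up to 714, was set aside after its values were seen). Adding 16 to each intensity before the log brought its difference down to 0.61, so the size of the HEY2 change depends on how low values are treated.

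**Figure D2:**
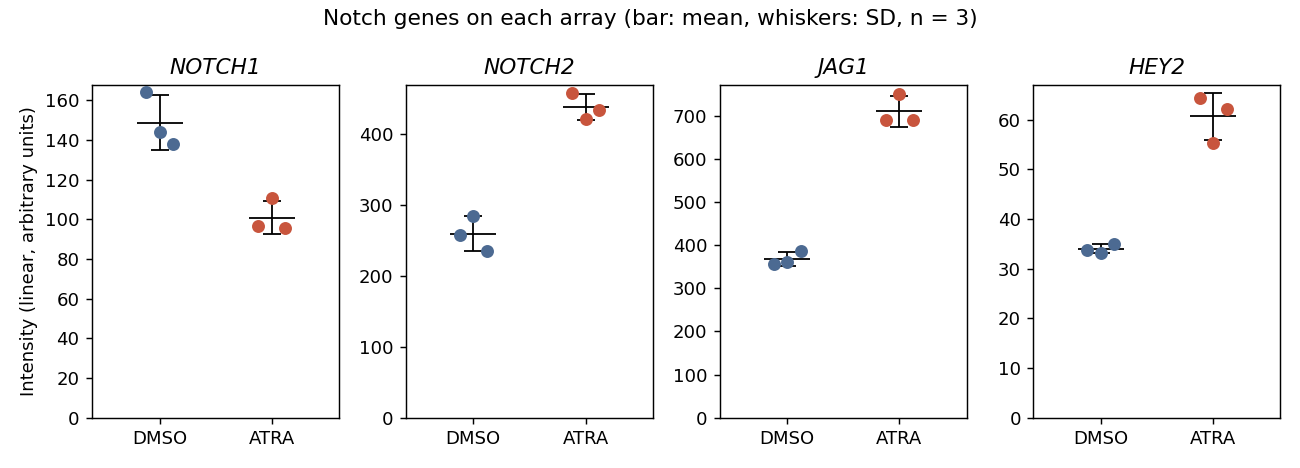
Intensity of each of the 4 genes (y axis, linear scale from 0) on the 3 DMSO and 3 ATRA arrays; points are arrays, the bar is the mean and the whiskers are the SD. NOTCH1 was lower on all 3 ATRA arrays, and NOTCH2, JAG1 and HEY2 were higher, with no overlap between groups in any panel.

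All 4 genes were among those that passed an adjusted p of 0.05 (limma), as were 3.80% of the 14884 genes tested (1.73% higher, like 3 of the 4, and 2.07% lower, like NOTCH1). For all 4 the values of the groups did not overlap, as for 24.7% of all genes. Both counts follow from how the 4 genes were chosen, and nothing is read from them. With each array left out in turn, the log2 difference ranged from -0.63 to -0.49 for NOTCH1, from 0.69 to 0.83 for NOTCH2, from 0.90 to 0.98 for JAG1 and from 0.79 to 0.90 for HEY2.

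**Figure D3:**
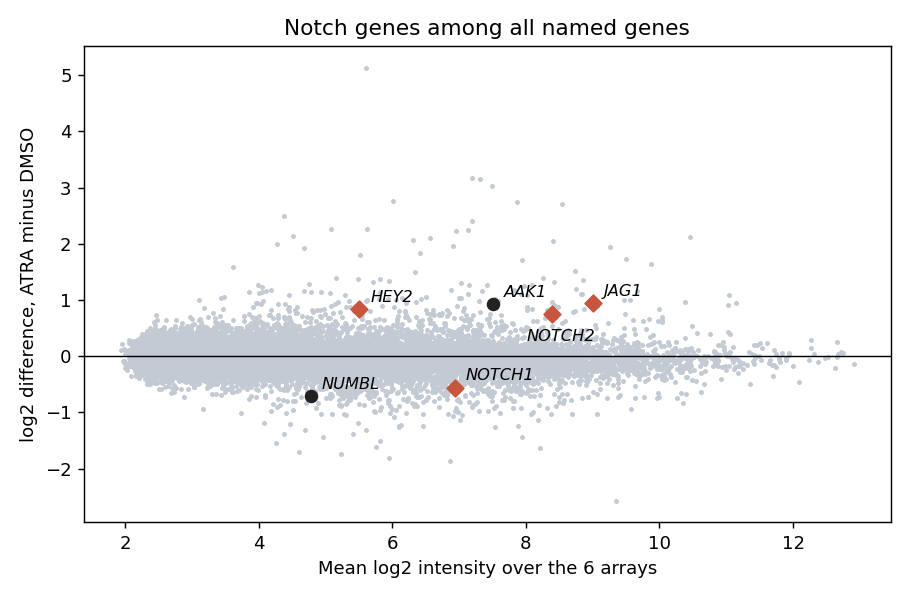
Log2 difference between ATRA and DMSO (y axis) against the mean log2 intensity over the 6 arrays (x axis) for all 14884 genes (grey points), with the 4 Notch genes as diamonds and NUMBL and AAK1 as black circles. The 4 genes lie between -0.56 for NOTCH1 and 0.95 for JAG1.

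Bulk measures of the samples did not differ much between arrays. The median intensity over all 53617 probe sets was 9.40 to 9.76 per array. Log2 values correlated across genes, which are not independent replicates, at 0.990 to 0.992 within groups and at 0.985 to 0.987 between groups. Of 10 plasma cell markers 7 were measured, and 6 of these lay between 291 and 2322, whereas POU2AF1, a B lineage coactivator, was at 13.3 to 20.0. For all 7 the values of the groups did not overlap, as for 24.7% of all genes. Of the 7, 3 rose with ATRA (limma, adjusted p at most 0.0175), where 3.80% of all genes passed in either direction. These were SDC1, CD38 and XBP1, with log2 differences of 0.84, 1.95 and 0.54. MZB1 was higher by 0.25 and did not pass (adjusted p = 0.242, limma). SLAMF7, IRF4 and the dim POU2AF1 had lower ATRA values, with log2 differences of -0.31, -0.17 and -0.25 that did not pass (adjusted p = 0.112, 0.383 and 0.383, limma). With trend and robust variance in limma, 6 of the 7 passed, where 8.92% of all genes did in either direction. SLAMF7 (adjusted p = 0.00069) and IRF4 (0.031) were among them on the lower side, and MZB1 (0.0096) on the higher side. Of 36 markers listed for other cell types, CD68 left out, only 17 were measured. The summed intensity of these 17 was 206 to 220.2 with DMSO and 210.2 to 214 with ATRA, and 0 of the 17 passed limma's test (2, CD8A and ENG, had an unadjusted p under 0.05, and 0 passed with trend and robust variance). CD68, a lysosomal protein not limited to myeloid cells, was at 704 to 714 with DMSO and 535 to 606 with ATRA (adjusted p = 0.121, limma; 0.00289 with trend and robust variance), and with it the sums were 917 to 928 and 746 to 817. JAG1 and NOTCH2 are also expressed in endothelial and stromal cells, of which 5 of 7 and 3 of 8 markers were measured. The measured ones were at 4.44 to 24.0 on every array, and DCN and LUM, which mark stromal cells, were at or under 5.73.

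For each of the 4 genes, the 3 genes with the most similar profile were taken by Pearson correlation over the 6 arrays, among 6851 protein-coding genes brighter than the median gene. With 6 arrays in 2 groups, any gene that differs between groups correlates highly, so these values only describe the arrays. NOTCH1 was followed most closely by AFG2B (r = 0.996), RPP25, a subunit of ribonuclease P (0.994), and NUMBL (0.993), which were lower with ATRA by 0.39, 0.33 and 0.71 on the log2 scale. For NOTCH2 these were GDPGP1 (0.997), TNIP1, an inhibitor of NF-kappaB signalling (0.994), and CTSO, a cysteine cathepsin (0.994), higher by 0.93, 0.53 and 0.85. JAG1 was matched by TRIM56, a ubiquitin ligase of antiviral signalling (0.998), DDIT4, an inhibitor of mTORC1 (0.997), and ACACA, which makes malonyl-CoA (0.997). Their differences of 0.27, 2.71 and 1.10 show that a like profile can go with a change of a very different size. HEY2 was matched by ABHD14B (0.995), BMF, a BH3-only protein that promotes apoptosis (0.994), and MYO6, an unconventional myosin (0.994), higher by 0.41, 1.15 and 0.99.

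**Figure D4:**
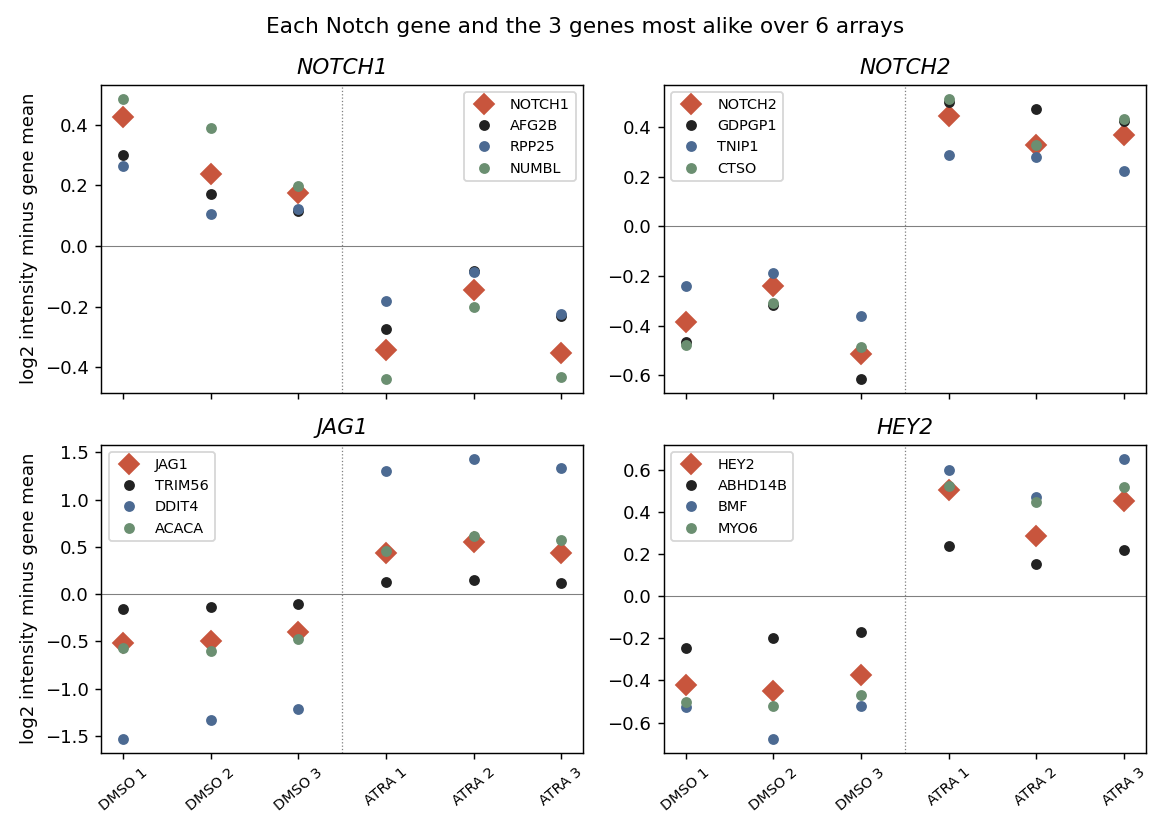
Log2 intensity minus the mean of the gene (y axis) on each of the 6 arrays (x axis), for each of the 4 Notch genes (diamonds) and the 3 genes with the highest Pearson correlation with it (circles). The genes of the NOTCH1 panel are lower and those of the other panels higher on the ATRA arrays, and DDIT4 differs by 2.71 where JAG1 differs by 0.95.

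The rest of the Notch pathway was examined next, in a list of 86 other genes sorted by role, of which 73 had a named probe set. Of the 73, 1 rose, 1 fell and 71 did not pass (limma, adjusted p under 0.05), which is 2.74% against 3.80% of all genes. Their median log2 difference was -0.04, against -0.01 for all genes. The groups did not overlap for 16 of the 73 (21.9%, against 24.7% of all genes). These counts leave out NOTCH1, NOTCH2, JAG1 and HEY2 and describe only the other genes of the list. The list was too dim in part to judge, since 36 of the 73 lay below 34.3, the highest marker value of other cell types, on all 6 arrays.

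The gene that rose was AAK1, a kinase of the clathrin adaptor complex that also acts on NUMB and on Notch trafficking. AAK1 had intensities of 136, 143 and 118 with DMSO and of 252, 259 and 244 with ATRA. Its groups were well apart, at 132 ± 13.1 and 252 ± 7.45 (SD, n = 3 each), a 1.91-fold higher level (log2 difference 0.93, SE 0.10, adjusted p = 0.00514, limma). The call held with each array left out in turn (adjusted p 0.0145 to 0.0282).

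The gene that fell was NUMBL, a relative of the endocytic adaptor NUMB, which antagonises Notch. NUMBL had intensities of 38.4, 35.9 and 31.5 with DMSO and of 20.2, 23.8 and 20.3 with ATRA. All ATRA values were below all DMSO values, with means of 35.2 ± 3.49 and 21.5 ± 2.05 (SD, n = 3 each), a 1.64-fold lower level (log2 difference -0.71, SE 0.12, adjusted p = 0.0204, limma). All ATRA values and DMSO replicate 3 lay below the 34.3 of CD8A, and the other DMSO values were close to it, so the size of the fall is uncertain. The call was lost without DMSO replicate 1 (adjusted p = 0.0813), DMSO replicate 2 (0.0758), ATRA replicate 1 (0.0799) or ATRA replicate 3 (0.0750). NUMB itself was at 25.6 ± 1.34 with DMSO and 24.8 ± 1.74 with ATRA and did not pass (adjusted p = 0.860, limma).

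The other receptors and ligands gave dim signals. NOTCH3 and NOTCH4 lay between 10.1 and 20.5, and neither passed the test (NOTCH3: log2 difference -0.13, SE 0.16, adjusted p = 0.726, limma). The 9 other ligands and ligand-like genes, JAG2, DLL1, DLL3, DLL4, DLK1, DLK2, DNER, MFAP5 and CCN3, lay between 4.92 and 29.1, and 0 passed. None of these 9 had an unadjusted p under 0.05, and none was called by limma with trend and robust variance. DLL4 had the largest difference, 0.25 (SE 0.11, adjusted p = 0.293, limma). All 11 of these receptors and ligands were below the highest marker value of other cell types on every array, so changes in them could not be judged.

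Ligand-sending cells need ubiquitin ligases and epsins to pull on the bound receptor. Of 6 such genes measured, 0 passed in limma's main test, 2 had an unadjusted p under 0.05 (17.9% of all genes did), and limma with trend and robust variance, which called 8.92% of all genes, called the same 2, NEURL1 and EPN1. NEURL1, a Neuralized ubiquitin ligase, had intensities of 55.6, 56.8 and 38.4 with DMSO and of 32.3, 31.6 and 29.1 with ATRA (log2 difference -0.68, SE 0.16, adjusted p = 0.0739, limma). DMSO replicate 3 was closest to the ATRA arrays. Of the fits with 1 array left out, only the one without it called NEURL1 (-0.86, adjusted p = 0.0207, limma). In the others the adjusted p was 0.155 to 0.204. All ATRA values of NEURL1 lay below the 34.3 of CD8A, so the size of its difference is uncertain. EPN1, an epsin, was at 105 ± 11.8 and 142 ± 19.0 (log2 difference 0.43, adjusted p = 0.150, limma), and MIB1, the ubiquitin ligase of Jagged and Delta ligands, differed by 0.11.

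Among 8 measured genes of receptor cleavage, 0 passed in the main test, 5 had an unadjusted p under 0.05 (4 lower and 1 higher), where 17.9% of all genes did, and the groups did not overlap for 5 of the 8 (62.5%, against 24.7% of all genes). Limma with trend and robust variance called 3 of the 8, all lower with ATRA, where it called 8.92% of all genes. These were APH1A, a subunit of gamma-secretase, ADAM10, the protease of the ligand-induced cut, and ADAM17, a related protease. APH1A had intensities of 273, 264 and 275 with DMSO and of 204, 219 and 184 with ATRA (log2 difference -0.42, SE 0.098, adjusted p = 0.0686 in the main fit and 0.00444 with trend and robust variance). ADAM10 was at 745 ± 19.4 and 643 ± 19.6 (-0.21, adjusted p = 0.242 and 0.0132) and ADAM17 at 279.8 ± 19.3 and 230.0 ± 16.6 (-0.28, adjusted p = 0.204 and 0.0466). The gamma-secretase subunits NCSTN (0.05) and PSENEN (-0.0045) were close to level, and PSEN2, a catalytic subunit, was higher by 0.32 without passing (adjusted p = 0.146, limma).

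Enzymes that add sugars to the receptor, among them the Fringe enzymes, differed by -0.23 to 0.19, with 0 of 8 called by limma in either form and 1 with an unadjusted p under 0.05 (17.9% of all genes had one). That gene was GXYLT1, a xylosyltransferase (log2 difference -0.23, SE 0.084, adjusted p = 0.200, limma). Of 9 nuclear activators, 0 passed in either form and 1 had an unadjusted p under 0.05, MAML1, a Mastermind coactivator (-0.29, SE 0.093, adjusted p = 0.158, limma). MAML1 had intensities of 35.3, 37.2 and 38.8 with DMSO and of 31.8, 30.9 and 28.5 with ATRA. Its ATRA values lay below the 34.3 of CD8A, so the size of its difference is uncertain. RBPJ itself was at 40.4 ± 2.82 with DMSO and 38.9 ± 0.618 with ATRA (SD, n = 3), a difference of -0.05 that was smaller than its SE of 0.092. Of the corepressors 6 of 14 were measured, 0 passed in either form and 0 had an unadjusted p under 0.05, with CTBP1 at -0.23 as the largest difference (SE 0.15, adjusted p = 0.490, limma).

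Of the 11 other target genes measured beside HEY2, 0 passed in limma in either form, 1 had an unadjusted p under 0.05 (17.9% of all genes did), and 9 lay below the highest marker value of other cell types on every array. That one was NRARP, which encodes a feedback inhibitor of the Notch complex, with intensities of 14.8, 8.39 and 15.0 with DMSO and of 18.9, 19.1 and 21.1 with ATRA. These groups did not overlap, but the difference of 0.68 (SE 0.22) did not pass (adjusted p = 0.168, limma), and the level was dim. HES4, HES5 and HEYL, whose promoter windows hold the RBPJ heptamer as that of HEY2 does, had log2 differences of 0.10 (SE 0.21), 0.18 (SE 0.22) and -0.40 (SE 0.17), with adjusted p of 0.860, 0.736 and 0.279 (limma). HES4, HES5 and HEYL lay between 5.41 and 29.2, below that marker value on every array, so changes in them could not be judged. HEY1, a close relative of HEY2, was at 6.96 ± 1.38 and 6.90 ± 1.08 (SD, n = 3). HES1 was not analysed here.

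**Figure D5:**
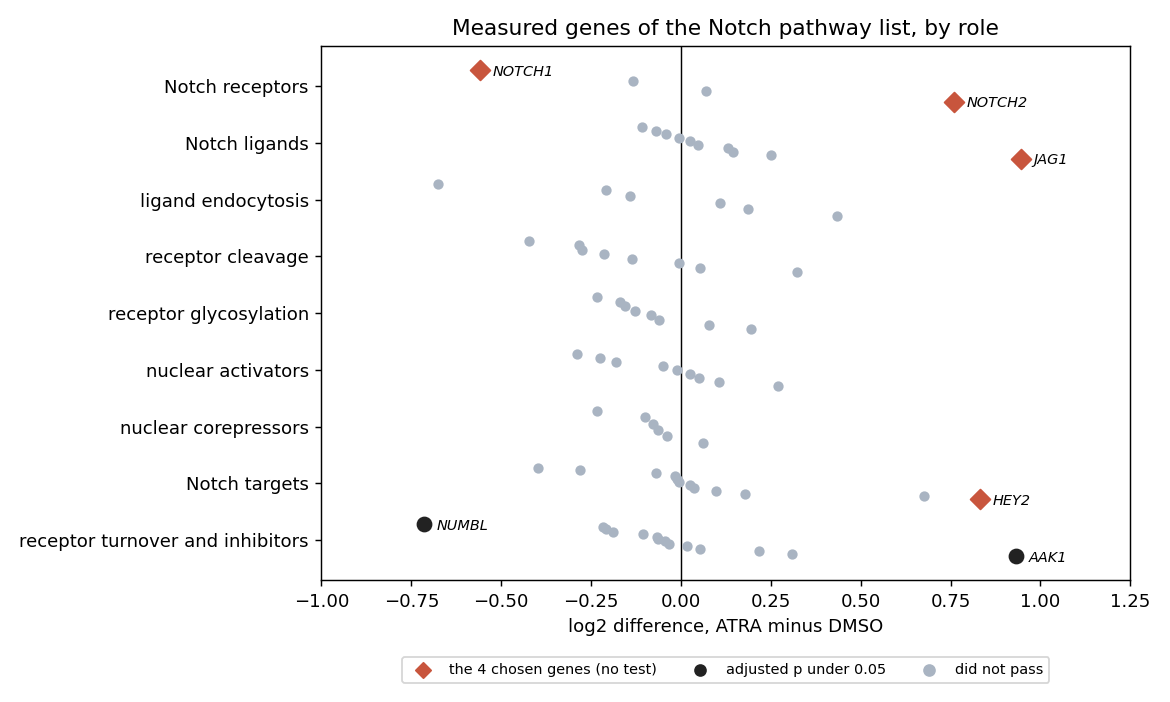
Log2 difference between ATRA and DMSO (x axis) for each measured gene of the Notch pathway list, in rows by role, with the 4 chosen genes as diamonds, genes past an adjusted p of 0.05 in black and the rest in grey. AAK1 is at 0.93 and NUMBL at -0.71. NEURL1, in the row of ligand endocytosis, is at -0.68 and did not pass.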

How the data were processed

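Total RNA of 6 MM.1S samples was labelled with biotin by a whole-transcript kit and hybridised to arrays, per the labels. The deposited values of the authors are normalized intensities on a linear scale for 53617 probe sets; RMA and limma appear in the submitters' processing notes, without roles or versions, and a build is not given in the sources used here. Any compression of low values by the authors' background correction remains in the fold changes.

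Values were turned to log2 without a pseudocount. Of the probe sets 16098 (30.0%) had 1 gene symbol, 0 had several and 37519 are unnamed here. The brightest probe set per symbol gave 14884 genes, and each of the 4 Notch genes had 1. Differences were fitted with limma 3.58.1 in R 4.3.3 (lmFit, eBayes, 2-sided, no block, Benjamini-Hochberg over all genes, threshold 0.05). The steps were tested on simulated data with differences larger than those of the 4 genes, so not at the size seen here. SDs span the 3 arrays per group, a number that limits precision, and folds are ratios of geometric means.

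The 4 genes, the lists and the tests were chosen with earlier results of these data known. Named genes were the 4, list members that passed, the member with the largest difference in roles with none, and the 3 most alike per gene; the others were named for their role or after their values were seen. Alternatives were a replicate block, leaving out arrays, filters on dim genes, other scalings, trend and robust variance, the mean of probe sets, each probe set alone and a pseudocount of 16.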

Additional observations from a re-analysis of the deposited data

How the results depend on the processing

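The directions of NOTCH1, NOTCH2, JAG1 and HEY2 held in all alternatives tried for them. Their differences moved by less than 1 SD between arrays, except that HEY2 came to 0.61 with a pseudocount of 16. Most of this was fixed in advance and is no support. Groups without overlap keep their direction when an array is left out or a pseudocount is added. Leaving out 1 array cannot move such a difference by 1 SD. The replicate block and, with 1 probe set per gene, the mean of probe sets return the same difference. Only the other scalings could have changed a direction. The count of 565 called genes became 207 to 317 with 1 array left out, 1143 without the dimmer 50% of genes and 1327 with trend and robust variance. In the Notch list, the count of genes that fell (1) ranged from 0 to 2 with 1 array left out, and was 3 and 2 without the dimmer 50% and 25% of genes (APH1A in both, NEURL1 in the first) and 5 with trend and robust variance, where the count that rose was 2. NOTCH3 ranged from -0.26 to 0.029 with 1 array left out, turning sign without ATRA replicate 2. Samples with the same replicate number hardly deviated together, with correlations of their deviations across genes of 0.0170, 0.00867 and 0.0161. Samples with different numbers had correlations of -0.0137 to -0.00269. All were small, but only same-number pairs were positive, so this check does not settle whether the numbers pair samples. With the replicate number as a block, 200 genes were called and 0 genes of the Notch list fell (NUMBL, adjusted p = 0.0649, limma). In that fit NOTCH2NLA did not pass (adjusted p = 0.114, limma), and AAK1 kept its call (adjusted p = 0.0315, limma). The cause of these shifts was not tested, although fits with fewer arrays or a block have fewer degrees of freedom. Low signal limits the dim ligands, receptors and targets.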
